A study of Homo sapiens with 9 samples.

Results

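Fibrillar collagens are the rod-shaped proteins that assemble into the banded fibrils of the extracellular matrix. The genes described here were 10 chains listed by name, COL1A1, COL1A2, COL2A1, COL3A1, COL5A1, COL5A2, COL5A3, COL11A1, COL11A2 and COL27A1, and all 10 had a row among the 18970 gene symbols measured. They were treated as 4 cartilage chains (COL2A1, COL11A1, COL11A2 and COL27A1) and 6 mesenchymal chains (the rest). The question was how labelled, unconverted and total RNA of the cartilage chains moved beside those of the mesenchymal chains when SOX9 was removed from cranial neural crest cells (CNCCs).

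The CNCCs were differentiated from the H9 human embryonic stem cell line. In these cells both SOX9 alleles carried a C-terminal tag of FKBP12-F36V, mNeonGreen and V5. The FKBP12-F36V part lets the small molecule dTAGV-1 send the tagged protein to degradation. Cells were sampled at 0h, 3h and 24h of dTAGV-1 (500 nM), with a labelled SOX9 level of 100% at 0h and 0% at both later times. According to the methods, cells without dTAGV-1 received DMSO. All cells, the 0h cells included, carried the tag and took up 4-thiouridine (4sU, 100 uM) for 2 h before collection. For 3h and 24h cells this pulse started at hours 1 and 22 of dTAGV-1. Each time was sampled once in each of 3 cultures, S9CC13_R6, S9CC47_R5 and S9CC47_R6, whose names give the clone (2 in all) and the differentiation batch (also 2), so every comparison had n = 3 per time. Clone S9CC13 was present in 1 culture and S9CC47 in 2, and untagged cells were not analysed here.

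In SLAM-seq the incorporated 4sU is alkylated and read as T>C conversions, so reads with a conversion (T>C reads) come mostly from RNA made during the pulse. Reads without one (unconverted reads) come mostly from older RNA, plus new RNA that took up no label at the bases read. All libraries were labelled, so T>C mismatches of other origin were not measured. The libraries held between 16955633 and 28782678 total reads (median 21356401) and between 3130673 and 5475800 T>C reads (median 3957989). The T>C share of a library ranged from 15.9% to 21.3%. Reads were counted at transcript 3′ ends and were not divided by length, so a gene is compared below with itself across samples. Where reads of several chains are summed or divided, the proportions describe reads and not RNA levels. Normalized reads are counts divided by the DESeq2 size factor of the library. Markers of cranial neural crest mesenchyme were present in all libraries, since all 12 listed (among them TWIST1, TFAP2A and PDGFRA) passed the filter on low counts. Among chondrocyte markers other than the members, 3 of 10 passed it, and COL10A1 had no read in any library. None of 6 endothelial or blood markers passed it.

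Each fibrillar collagen molecule is a triple helix. COL1A1 and COL1A2 together form type I collagen of bone, skin and tendon, and COL3A1 alone forms type III collagen of soft tissues. COL5A1, COL5A2 and COL5A3 form type V collagen, which sits inside type I fibrils and limits their width. COL2A1 alone forms type II collagen, the main fibril of cartilage, and joins COL11A1 and COL11A2 in type XI collagen, which nucleates cartilage fibrils. COL27A1 forms type XXVII collagen of developing cartilage. In chondrocytes SOX9, with its partners SOX5 and SOX6, binds enhancers of COL2A1 and of the type XI chains.

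On hg38 the 10 genes lie on 8 chromosomes. COL2A1 lies on chromosome 12 (47972967 to 48004554, minus strand), COL11A1 on chromosome 1 (102876467 to 103108872, minus strand), COL1A1 on chromosome 17 (50184101 to 50201632, minus strand) and COL1A2 on chromosome 7 (94394895 to 94431227, plus strand). COL3A1 and COL5A2 are neighbours on chromosome 2, with 19151 bases between their 3′ ends, which face each other. The others are COL11A2 on chromosome 6, COL5A3 on chromosome 19, and COL27A1 and COL5A1 on chromosome 9. In the canonical GENCODE transcripts the members have between 51 and 67 exons, and the last exon, where 3′ end reads are expected to fall, is 587 bases long in COL2A1 and 2687 in COL5A1.

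Promoter sequences from RefSeq (GRCh38.p14) were listed for 5 of the 10 members, COL11A1, COL11A2, COL27A1, COL5A1 and COL5A3. COL11A1 and COL27A1 are shown because they are cartilage chains of which COL11A1 was called lower at 24h and COL27A1 was not called. Each run is the 250 bases before the RefSeq start of the gene, 5′ to 3′ on the gene's strand, at chr1:103108523-103108772 (minus strand) and chr9:114155287-114155536 (plus strand). The RefSeq start of COL11A1 lies downstream of the end of its GENCODE span at 103108872, so its window falls inside that span, while the window of COL27A1 ends next to its GENCODE start. Capitals mark CCAAT boxes (CCAAT) and GC boxes (GGGCGG), each searched on both strands.
COL11A1: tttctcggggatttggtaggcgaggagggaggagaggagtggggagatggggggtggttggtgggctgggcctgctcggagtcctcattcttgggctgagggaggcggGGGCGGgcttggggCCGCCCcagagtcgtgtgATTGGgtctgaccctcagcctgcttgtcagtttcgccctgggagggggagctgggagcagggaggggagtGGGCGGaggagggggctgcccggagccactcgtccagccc
COL27A1: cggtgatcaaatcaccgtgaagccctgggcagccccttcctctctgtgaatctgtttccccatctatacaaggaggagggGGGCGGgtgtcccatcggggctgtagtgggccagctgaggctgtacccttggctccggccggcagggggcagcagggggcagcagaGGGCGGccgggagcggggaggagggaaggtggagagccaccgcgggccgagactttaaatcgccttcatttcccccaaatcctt
The COL11A1 window held 3 GC boxes and 1 CCAAT box, and that of COL27A1 held 2 GC boxes and 0 CCAAT boxes. Of 27305 promoters of the same length, 42.3% held a GC box and 33.0% a CCAAT box. GC content was 68.8% in COL11A1 and 64.4% in COL27A1, against a median of 58% over all promoters. The SOX core letters ACAAAG or ACAATG, searched on both strands, stood in 21.4% of all promoters and in 1 of the 5 listed for members, that of COL5A3. A TATA box (TATAAA on the gene's strand) stood in 7.17% of all and in 0 of the 5.

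Of the 10 members, 9 passed the filter of 1 CPM (reads relative to the library total) in 3 samples in both T>C and total reads and were tested. COL5A3 had between 0 and 4 total reads per library and was not tested. At 24h, 4 of the 9 tested chains were called in T>C reads, at an adjusted p under 0.1 in the DESeq2 Wald test. The cartilage chains COL2A1 and COL11A1 were lower and the mesenchymal chains COL1A1 and COL1A2 were higher. Of all 12037 genes tested, 4.98% were called in that comparison in either direction. At 3h, 0 of the 9 were called by DESeq2 or by edgeR, where DESeq2 called 1.79% of all tested genes. COL2A1 and COL27A1 had an unadjusted p under 0.05 in DESeq2 at 3h, beside 882 of all 12037 genes. The median log2 fold change at 24h was -0.56 over the 4 cartilage chains and 0.26 over the 5 tested mesenchymal chains, against 0.0015 over all genes tested.

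**Figure D1:**
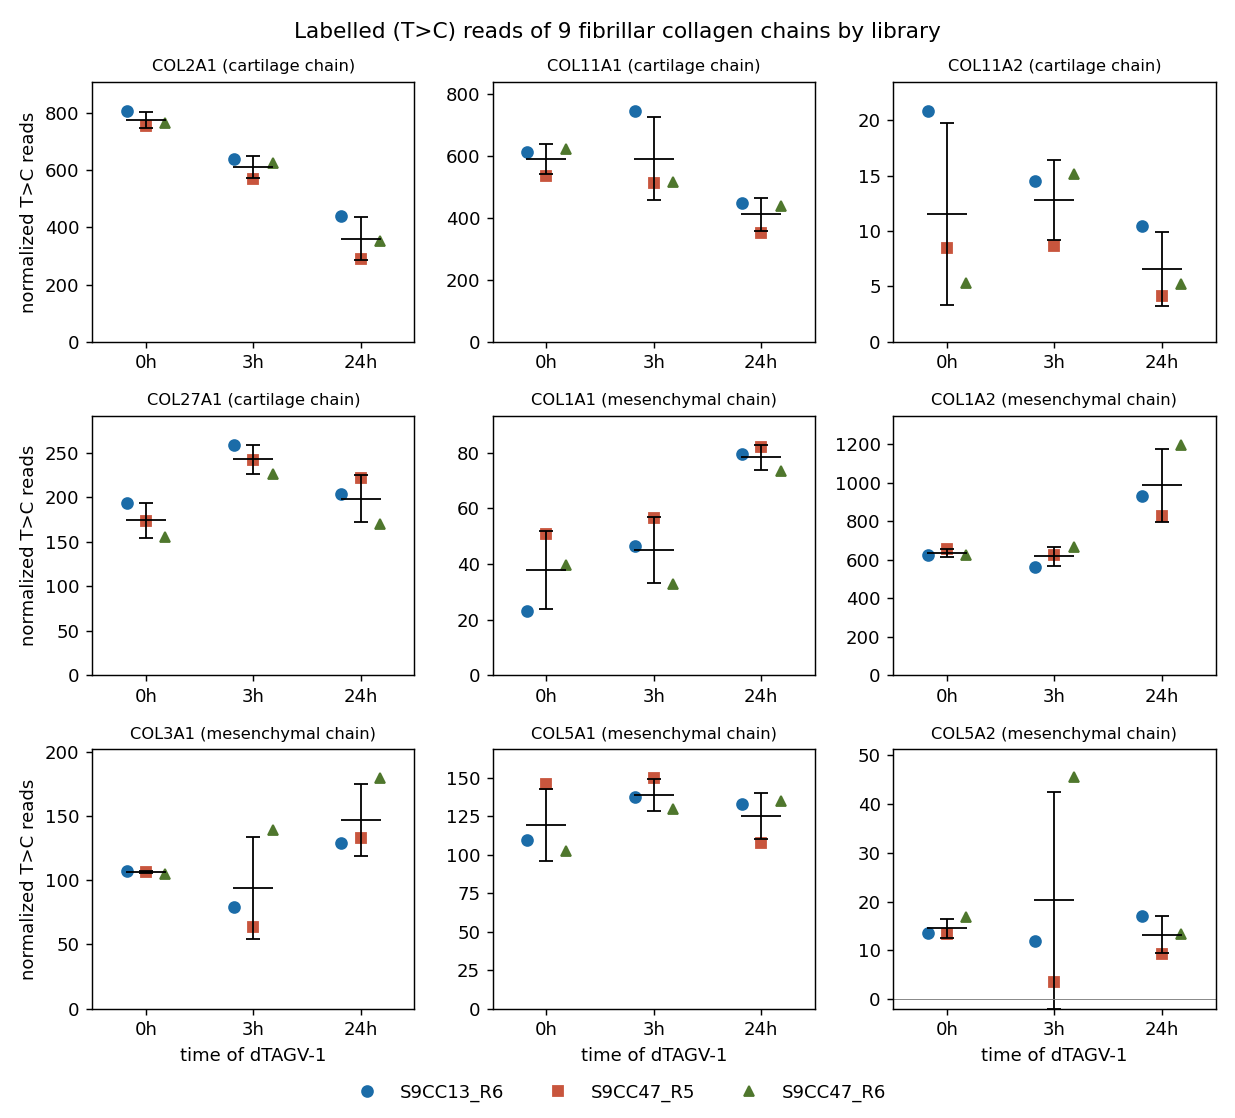
Normalized T>C reads (vertical axis, linear) of the 9 tested chains at 0h, 3h and 24h of dTAGV-1 (horizontal axis). Points are libraries, shaped by culture, and bars are the mean and 1 SD (n = 3). COL2A1 falls from a mean of 776 at 0h to 360 at 24h without overlap, while COL1A2 goes from 634 to 985.

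COL2A1, the chain of type II collagen, was the member with the smallest adjusted p at 24h. In S9CC13_R6, S9CC47_R5 and S9CC47_R6, an order kept for every set of values below, its normalized T>C reads at 0h were 806, 756 and 765. At 3h they were 640, 569 and 627, and at 24h they were 438, 290 and 353. The order of the groups was 0h above 3h above 24h in all 3 cultures, and no 2 groups overlapped. Overlap of groups is given throughout as a description, since it was not counted over all genes. The means in order of time were 776 ± 27.0, 612 ± 37.8 and 360 ± 74.4 (SD, n = 3).

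At 24h the log2 fold change of COL2A1 in T>C reads was -1.10 (SE 0.134, DESeq2 adjusted p = 8.73e-14). Within cultures it was -0.88 in S9CC13_R6 and -1.11 in S9CC47_R6, both of batch R6, and -1.38 in S9CC47_R5. The call held with each culture left out. At 3h the log2 fold change was -0.35 (SE 0.125, adjusted p = 0.215), so that the early step, though lower in 3 of 3 cultures, did not pass the test. With size factors taken from total reads, the 3h value was -0.42 and was called (adjusted p = 0.0506). That setting moved all genes down, with a median log2 fold change of -0.083 at 3h against -0.011 in the main fit. It called 231 of all 12037 genes, 147 of them lower, where the main fit called 216, 95 of them lower.

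Total reads of COL2A1 were called lower at 24h and not at 3h. On the normalized scale, the 0h libraries held 7156, 7114 and 6728, the 3h libraries 6000, 6172 and 6611, and the 24h libraries 4244, 3281 and 4060. Again no 2 groups overlapped. In total reads its log2 fold change at 3h was -0.14 (SE 0.0862, adjusted p = 0.764). By 24h it was -0.90 (SE 0.0904, adjusted p = 7.84e-21). Unconverted reads gave -0.87 at 24h (SE 0.0896).

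COL11A1, a type XI chain, was called lower at 24h and not at 3h. Its normalized T>C reads at 0h were 612, 534 and 624. At 3h they were 745, 514 and 517, and at 24h they were 447, 351 and 438. All libraries at 24h lay below all those at 0h and at 3h, while the 0h and 3h libraries overlapped. For COL11A1 the log2 fold change in T>C reads was -0.06 at 3h (SE 0.122, adjusted p = 0.998). Its 24h value was -0.43 (SE 0.129, adjusted p = 0.0270). The 24h call was lost when any 1 culture was left out, with a log2 fold change of -0.53 without S9CC13_R6, -0.30 without S9CC47_R5 and -0.53 without S9CC47_R6. It was also lost with the culture as a block and 1 surrogate variable (-0.42, adjusted p = 0.144), and with a surrogate variable from counts not scaled for depth (-0.48, adjusted p = 0.107).

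In total reads, COL11A1 held 4064, 3400 and 3801 normalized reads before dTAGV-1 and 2890, 2500 and 2763 after 24h, without overlap. This was a log2 fold change of -0.40 (SE 0.0831, adjusted p = 5.23e-05), and without S9CC13_R6 it was -0.45 and not called (adjusted p = 0.300). At 3h it was 0.01 (SE 0.0792).

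COL27A1 was called in neither direction. Its normalized T>C reads were 194, 173 and 155 at 0h. The 3h libraries held 259, 243 and 226, and the 24h libraries 204, 222 and 170. All 3 libraries at 3h lay above all 3 at 0h, and the 24h libraries overlapped those at 0h. Neither change of COL27A1 passed the threshold, with a log2 fold change of 0.44 at 3h (SE 0.170, adjusted p = 0.335) and of 0.27 after 24h (SE 0.177, adjusted p = 0.566). In total reads it was 0.14 at 3h (SE 0.0943) and -0.01 at 24h (SE 0.0988).

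COL11A2, the other type XI chain, was thinly measured, with between 4 and 20 T>C reads and between 28 and 90 total reads per library. At 24h its log2 fold change was -0.69 in T>C reads (SE 0.791, adjusted p = 0.810) and -0.63 in total reads (SE 0.402, adjusted p = 0.350). At this depth a change of the size seen in COL2A1 could not be told from none in T>C reads.

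Among the mesenchymal chains, COL1A2 of type I collagen was called higher at 24h in T>C, total and unconverted reads. Its normalized T>C reads were 623, 657 and 622 at 0h. The 3h libraries held 562, 623 and 664, and the 24h libraries 932, 826 and 1197. The 0h and 3h libraries overlapped, and every 24h library lay above them. For COL1A2 the log2 fold change in T>C reads was 0.02 at 3h (SE 0.114, adjusted p = 0.998). The 24h value was 0.52 (SE 0.118, adjusted p = 0.000652). The 24h call was lost without S9CC13_R6 (0.49) and without S9CC47_R6 (0.46).

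Total reads of COL1A2 were 4484, 4969 and 4326 before dTAGV-1 and 6815, 6229 and 8979 after 24h on the normalized scale. This gave a log2 fold change of 0.51 (SE 0.0792, adjusted p = 8.48e-09) in total reads and 0.52 (SE 0.0799) in unconverted reads at 24h. Without S9CC13_R6 it was 0.23 in total reads and 0.32 in unconverted reads, neither called. The step was uneven between cultures, since the change in total reads within S9CC47_R6 was 1.05 and that within S9CC47_R5 was 0.33 on the log2 scale.

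COL1A1, the partner of COL1A2 in type I collagen, had 22.9, 50.8 and 39.6 normalized T>C reads at 0h. It had 46.3, 56.3 and 32.7 at 3h, and 79.6, 82.0 and 73.3 after 24h. The 0h libraries spread by more than the 24h libraries did (SD 14.0 against 4.49), and the groups at 0h and 24h did not overlap. At 24h its log2 fold change was 1.11 (SE 0.344, adjusted p = 0.0378). Within cultures it was 1.80 in S9CC13_R6, whose 0h library was the lowest, 0.69 in S9CC47_R5 and 0.89 in S9CC47_R6. Its call was lost when any 1 culture was left out, with values of 0.85 without S9CC13_R6, 1.40 without S9CC47_R5 and 1.21 without S9CC47_R6, and with the culture as a block and 1 surrogate variable (1.20, adjusted p = 0.114). It was lost too with a surrogate variable from counts not scaled for depth (1.06, adjusted p = 0.129).

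COL1A1 was also called in total reads at 24h, and not in unconverted reads. Its total reads were 418, 501 and 439 before dTAGV-1 and 587, 585 and 671 after 24h on the normalized scale. Here the log2 fold change was 0.34 (SE 0.126, adjusted p = 0.0599), and it was called in none of the 3 fits that left out a culture, with values of 0.24 without S9CC13_R6, 0.35 without S9CC47_R5 and 0.55 without S9CC47_R6. The call was also lost with the culture as a block and 1 surrogate variable (0.28, adjusted p = 0.413), with the 6 samples compared alone (0.38, adjusted p = 0.142) and with the unscaled surrogate variable (0.43, adjusted p = 0.144). In unconverted reads it was 0.26 (SE 0.131, adjusted p = 0.235). With the culture as a block and no surrogate variable it was 0.40 (adjusted p = 0.0981). At 3h COL1A1 gave 0.23 in T>C reads (SE 0.343) and 0.05 in total reads (SE 0.122).

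COL3A1, the chain of type III collagen, did not pass the test. Its normalized T>C reads were 107, 106 and 105 at 0h. The 3h libraries held 79.4, 63.2 and 139, and the 24h libraries 129, 133 and 179. The 24h libraries lay above those at 0h, and the 3h libraries lay on both sides of the 0h group and overlapped the 24h group. At 24h its log2 fold change was 0.26 in T>C reads (SE 0.238, adjusted p = 0.732) and 0.23 in total reads (SE 0.126, adjusted p = 0.247). With the culture as a block and no surrogate variable, total reads of COL3A1 gave 0.46 and were called (adjusted p = 0.0113). Unconverted reads were called too (0.49, adjusted p = 0.00888).

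The type V chains showed no called change. COL5A1 had between 103 and 150 normalized T>C reads in all 9 libraries, with overlap between all groups, and a log2 fold change of 0.06 at 24h (SE 0.228). In total reads its log2 fold change at 24h was 0.05 (SE 0.106). COL5A2 had 4 T>C reads of 192 in S9CC47_R5 at 3h and 39 of 165 in S9CC47_R6 at 3h, while the other 7 libraries held between 9 and 22. Its log2 fold change in T>C reads was -0.52 at 24h (SE 0.674). COL24A1, a fibrillar chain outside the 10, had 21.9 ± 8.46 normalized T>C reads before dTAGV-1 and 22.5 ± 2.17 after 24h (SD, n = 3) and was not called.

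In total reads at 24h, 4 of the 9 tested members were called, the same genes as in T>C reads, beside 15.0% of all 11710 genes tested. In unconverted reads 3 of 9 were called (COL2A1, COL11A1 and COL1A2), beside 12.1% of all genes tested. At 3h, 0 of 9 were called in total reads, beside 1.89% of all genes, and 0 of 9 in unconverted reads, beside 1.10%. The comparisons at 3h and 24h share the 0h libraries.

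**Figure D2:**
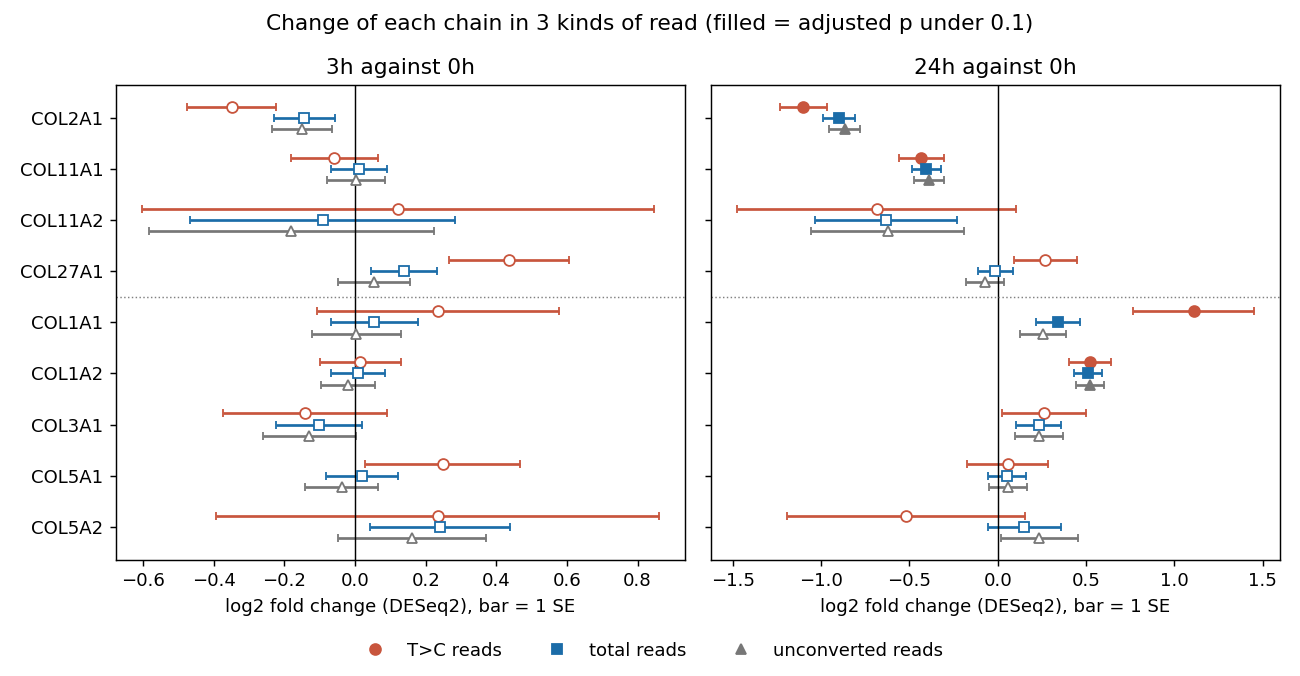
Log2 fold change (horizontal axis) of the 9 tested chains in T>C, total and unconverted reads at 3h (left) and 24h (right) against 0h, with bars of 1 SE and filled symbols where the adjusted p was under 0.1; the horizontal scales of the panels differ. At 3h no symbol is filled, and at 24h COL2A1 and COL11A1 lie left of 0 while COL1A1 and COL1A2 lie right of it.

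The step between the later times was tested directly. In T>C reads, 2 of 9 members were called at 24h against 3h (1.14% of all tested genes), COL2A1 at -0.75 (SE 0.145, DESeq2 adjusted p = 8.99e-05) and COL1A2 at 0.51 (SE 0.127, adjusted p = 0.0119). The COL2A1 call was lost without S9CC47_R5 (-0.60, adjusted p = 0.321), and that of COL1A2 was lost when any 1 culture was left out, with values between 0.49 and 0.63. Calls over all genes also fell in these fits, from 137 to 23 without S9CC13_R6, 35 without S9CC47_R5 and 83 without S9CC47_R6. In total reads 3 of 9 were called (5.39% of all tested genes), COL2A1 (-0.76), COL11A1 (-0.41) and COL1A2 (0.50), and in unconverted reads the same 3 (4.59%). With the culture as a block and no surrogate variable, COL11A1 was also called in T>C reads (-0.51, adjusted p = 0.0187). That fit called 530 of all 12037 genes in place of 137. With batch kept and only the surrogate variable left out, COL11A1 was called too (-0.52, adjusted p = 0.0302), beside 373 genes over all. The same block fit also called COL1A1 and COL3A1 in total reads, at 0.44 (adjusted p = 0.0418) and 0.67 (adjusted p = 7.36e-05). In unconverted reads it called them at 0.46 (adjusted p = 0.0532) and 0.72 (adjusted p = 1.75e-05). Leaving out only the surrogate variable called both in total reads, at 0.44 (adjusted p = 0.0848) and 0.67 (adjusted p = 0.0658). The block fit without a surrogate variable called 1544 of 11710 genes in total reads in place of 631. In unconverted reads it called 1166 of 11529 in place of 529. Leaving out only the surrogate variable gave 901 in total reads and 694 in unconverted reads. The block with 1 surrogate variable gave 248 in total reads and 254 in unconverted reads. Without S9CC13_R6, COL11A1 and COL1A2 were called in neither of these kinds of read. That fit called 92 genes over all in each kind, in place of 631 in total reads and 529 in unconverted reads.

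The summed reads of the members differed between times by less than their spread, while the part of them from cartilage chains was lower at 24h. Summed over the 10 members, total reads at 0h were 861 ± 33.1 CPM, those at 3h 838 ± 71.8 and those at 24h 840 ± 106 (SD, n = 3 per time). The cartilage chains took 65.1%, 60.1% and 63.6% of the members' T>C reads at 0h. They took 66.5%, 59.8% and 57.8% at 3h, and after 24h they took 46.0%, 42.8% and 37.7%. All 24h libraries lay below all others, and the 0h and 3h libraries overlapped. In total reads the cartilage part was 62.9% ± 2.11 before dTAGV-1, 62.8% ± 4.00 after 3h and 42.8% ± 3.94 after 24h (SD, n = 3).

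COL2A1 and COL1A2 were the chains with the smallest adjusted p of each kind, and they changed in opposite directions. A fall of their ratio at 24h follows from that choice, so the ratio is given as a description. In T>C reads there were 1.22 ± 0.0717 COL2A1 reads per COL1A2 read at 0h, 0.999 ± 0.122 after 3h and 0.372 ± 0.0892 after 24h (SD, n = 3). In total reads it was 1.53 ± 0.0855, 1.44 ± 0.179 and 0.534 ± 0.0855. No library at 0h or 3h came as low as the highest at 24h in either kind of read. Without COL2A1 the normalized T>C reads of the cartilage chains were 776 ± 55.7 before dTAGV-1 and 617 ± 41.9 after 24h. Most of that sum was COL11A1 (means of 590 and 412), while COL27A1 had 174 and 199 and COL11A2 had 11.5 and 6.59. Without COL1A2 those of the mesenchymal chains were 279 ± 35.2 and 364 ± 34.5. In that sum COL1A1 had means of 37.8 and 78.3, COL3A1 106 and 147, COL5A1 120 and 125, and COL5A2 14.5 and 13.2.

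**Figure D3:**
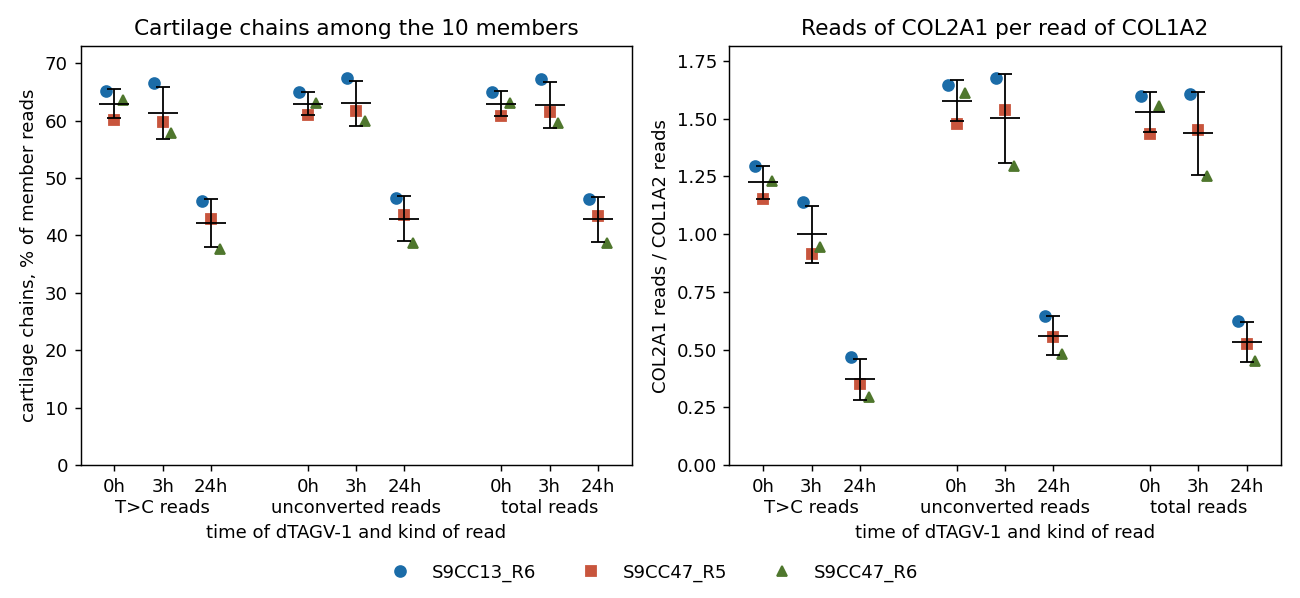
Left, reads of the cartilage chains as a percent of the reads of all 10 members, and right, COL2A1 reads per COL1A2 read, in T>C, unconverted and total reads at 0h, 3h and 24h; points are libraries shaped by culture, bars the mean and 1 SD (n = 3). In T>C reads the cartilage part is 62.9% at 0h and 42.2% at 24h, and the ratio goes from 1.22 to 0.372. The genes of the ratio were chosen by their adjusted p in these data.

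The T>C share of a gene is the percent of its reads that carry a conversion after the 2 h pulse. It is higher where RNA is replaced faster, but it also depends on how many T bases the reads cover. At 0h the mean share was 11.3% for COL2A1, 16.0% for COL11A1, 17.1% for COL27A1, 14.0% for COL1A2, 14.5% for COL3A1, 11.7% for COL5A1, 10.7% for COL5A2 and 8.42% for COL1A1, while the median over 12037 tested genes was 27.8%. COL11A2 had a share of 19.8% ± 6.69 (SD, n = 3), and the 3 libraries as wholes had shares from 18.5% to 20.1%. All 9 tested chains lay under the median gene, from COL1A1, with 5.26% of genes below it, to COL11A2, with 32.0% below it. SOX9, in contrast, had a share of 59.5%, above 93.9% of genes. The last 250 bases of the canonical transcripts held 28% T in COL2A1, 29.2% in COL1A1 and 38.4% in COL1A2, against a median of 32% over the tested genes and 45.6% in SOX9. The part of T content in these shares was not tested. Cartilage and mesenchymal chains overlapped in share, with COL2A1 between COL5A2 and COL5A1.

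**Figure D4:**
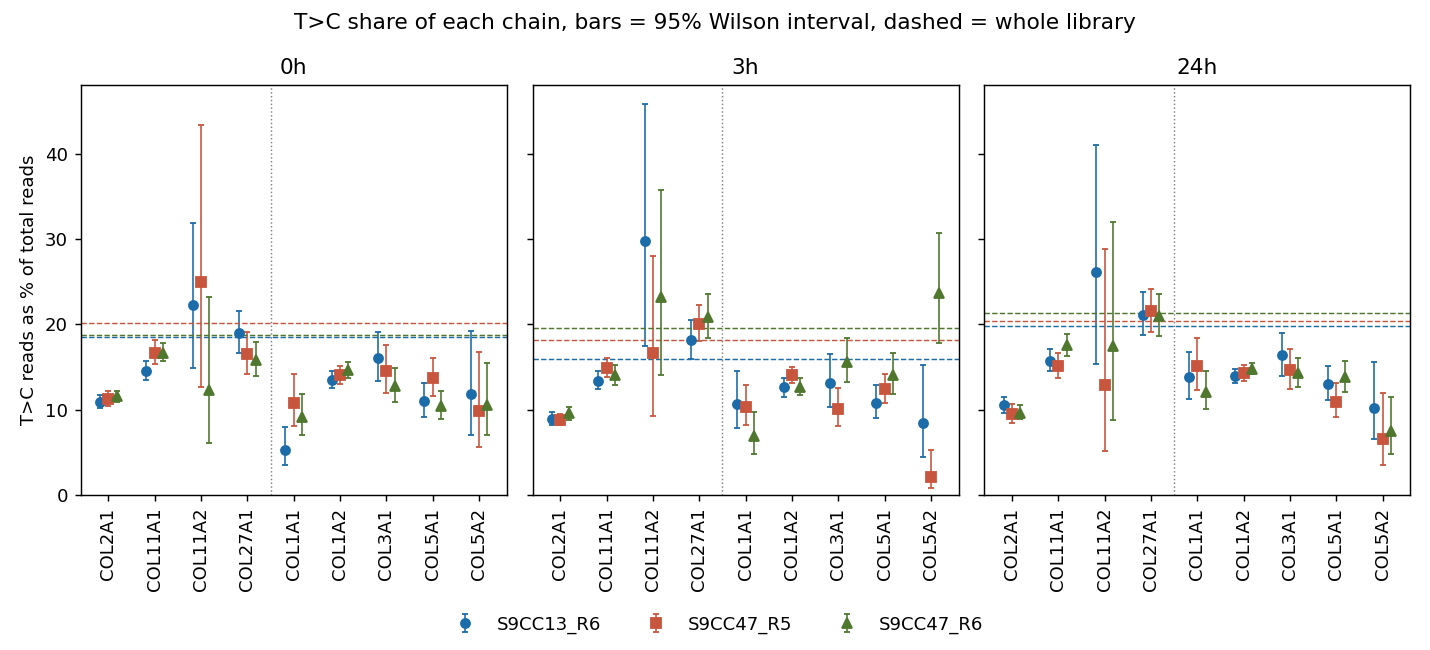
T>C reads as a percent of total reads (vertical axis) for the 9 tested chains at 0h, 3h and 24h; points are libraries shaped by culture, bars the 95% Wilson interval of the count, and dashed lines the share of the whole library. Most chains lie below their library at every time, COL11A2 has wide intervals, and COL5A2 at 3h ranges from 2.08% to 23.6%.

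No member's share was called at any time. For COL2A1 it was 10.9%, 11.3% and 11.6% at 0h. It was 8.94%, 8.85% and 9.57% at 3h, when the whole libraries held 15.9%, 18.1% and 19.5%, and 10.5%, 9.51% and 9.66% after 24h. Both later groups lay below 0h. The share was tested as the interaction of read kind (T>C or unconverted) with time in DESeq2, relative to the typical gene of a library. For COL2A1 this gave -0.17 at 3h (SE 0.114) and -0.32 at 24h on the log2 scale (SE 0.117, unadjusted p = 0.00694, DESeq2 adjusted p = 0.914).

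For COL1A1 the share was 5.31%, 10.8% and 9.19% before dTAGV-1 and 13.8%, 15.1% and 12.1% after 24h, without overlap. In S9CC13_R6 at 0h the 95% Wilson interval ran from 3.54% to 7.91%, which covers counting error only, since reads were not counted by molecular identifiers. The interaction was 0.69 at 24h (SE 0.297, unadjusted p = 0.0208, DESeq2 adjusted p = 1.000). For COL1A2 the share was 14.0% ± 0.584 before dTAGV-1 and 14.3% ± 0.432 after 24h (SD, n = 3), with an interaction of -0.08 (SE 0.107). T>C and unconverted reads of COL1A2 each gave 0.52 at 24h. COL27A1 went from 17.1% ± 1.64 to 21.2% ± 0.278 without overlap, with an interaction of 0.28 at 24h (SE 0.169, adjusted p = 1.000). The share of the median gene of a library also rose, from 27.6% ± 1.11 at 0h to 28.9% ± 1.26 at 24h (SD, n = 3).

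In the share, 0 of 9 members were called by DESeq2 at 3h, at 24h or at 24h against 3h, beside 0.324%, 0.0166% and 0.806% of all tested genes. At an unadjusted p under 0.05, the members were COL2A1 and COL1A1 at 24h and COL27A1 at 3h (0.42, SE 0.169, unadjusted p = 0.0125), beside 531 of all 12037 genes at 24h and 516 at 3h. Limma on the log2 ratio of T>C to unconverted reads called 0 of all 12037 genes in each comparison, with 793, 715 and 1000 genes at an unadjusted p under 0.05, so its count of 0 members says nothing particular to them. Whether the shares of cartilage and mesenchymal chains changed differently was not tested as a group.

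SOX9 RNA is not a check of the depletion, which acts on the protein. Its normalized T>C reads rose from 9789 ± 258 before dTAGV-1 to 16838 ± 1687 by 3h and 21449 ± 1885 by 24h (SD, n = 3), with log2 fold changes of 0.77 (SE 0.0809) and 1.15 (SE 0.0843), both called. SOX5, a partner of SOX9 on cartilage enhancers, fell at both times, by 0.85 at 3h (SE 0.181) and 1.26 at 24h (SE 0.193) on the log2 scale in T>C reads. SOX6, the other partner, gave 0.05 at 3h and was not called, and it fell by 0.73 at 24h (SE 0.121).

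Genes that process fibrillar chains were counted as lists. Among 17 tested genes of procollagen folding and hydroxylation, 1 was lower at 24h and 0 higher. This was PLOD3, a lysyl hydroxylase and glycosyltransferase of collagen, with a log2 fold change of -0.94 (SE 0.220, adjusted p = 0.00136). Of 9 genes of procollagen export, 7 of propeptide removal and 4 of crosslinking, 0 were called at 24h in T>C reads, where 4.98% of all tested genes were. In total reads at 24h, 3 of 17 folding genes were lower and 2 higher, 1 of 9 export genes was higher, 2 of 6 propeptide genes were lower, and 1 of 4 crosslinking genes was lower and 1 higher, beside 15.0% of all genes tested.

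Among chains on fibril surfaces, 1 of 5 tested was lower at 24h in T>C reads and 0 higher. It was COL9A1, a chain of type IX collagen that coats cartilage fibrils, which went from 85.0 ± 12.9 to 36.8 ± 16.0 normalized T>C reads (SD, n = 3 each), a log2 fold change of -1.07 (SE 0.327, adjusted p = 0.0316). Of 9 tested fibril-binding matrix proteins, 1 was lower and 3 were higher. Over all tested genes, 4.98% were called at 24h in T>C reads in either direction. PRELP, a leucine-rich protein of cartilage and other matrices, went from 96.9 ± 8.36 to 9.71 ± 3.52 normalized T>C reads (-3.14, SE 0.408). LUM and DCN, small proteoglycans that bind collagen fibrils, rose by 0.88 (SE 0.109) and 0.85 (SE 0.142) on the log2 scale. Of 6 tested collagen receptors, 0 were called at 24h and 1 at 3h, beside 4.98% and 1.79% of all tested genes. The median log2 fold change over the folding list was 0.04 and over the fibril-binding list 0.55 at 24h.

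The genes whose T>C reads ran most like COL2A1 over the 9 samples, among 8669 tested genes averaging 50 or more normalized T>C reads, were CCDC88C (Pearson r = 0.974), PRELP (0.974) and FBRSL1 (0.964). For COL1A1 they were INTS6L (0.954), PAN3 (0.949) and RGS4 (0.941). These are the highest values of a search and are given as descriptions, since the 9 samples share cultures and the 3 times.

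Marker lists of other cell types were summed beside these changes. Fibroblast or myofibroblast markers summed to between 69.2 and 78.9 CPM at 0h and between 52.8 and 94.2 at 24h (total reads), with overlap, and 4 of 7 passed the filter. Chondrocyte markers summed to between 73.3 and 77.2 CPM at 0h and between 51.0 and 64.4 at 24h. Of its abundant genes, COL9A1 had between 29.0 and 39.4 CPM at 0h and between 19.6 and 23.7 at 24h, while HAPLN1, a link protein of cartilage matrix, had between 31.7 and 38.9 and between 27.4 and 40.3. Osteoblast markers summed to between 12.1 and 12.7 CPM at 0h and between 10.5 and 14.8 at 24h, with DMP1 at 0, and 2 of 7 passed the filter. Most of this sum was BGLAP, with between 11.3 and 11.4 CPM at 0h and between 8.21 and 12.1 at 24h. RUNX2 went from between 0.0468 and 0.278 CPM to between 0.829 and 1.33, and ALPL from between 0.609 and 0.944 to between 1.19 and 1.33. Cranial neural crest mesenchyme markers summed to between 4322 and 4475 CPM at 0h and between 5577 and 6152 at 24h. Of the crest list, MSX1 went from between 594 and 672 CPM at 0h to between 1349 and 1553 at 24h. Schwann or melanocyte markers summed to between 14.2 and 20.0 CPM at 0h and between 3.16 and 4.58 at 24h, and 4 of 7 passed the filter. Pluripotent stem cell markers summed to between 350.1 and 414 CPM at 0h and between 281 and 306 at 24h, with TDGF1 at 0. Of these, 2 of 6 passed the filter, LIN28A and DPPA4. LIN28A had between 315 and 374 CPM at 0h and between 241 and 264 at 24h. DPPA4 had between 34.2 and 40.0 at 0h and between 36.7 and 44.6 at 24h. POU5F1 had 0 CPM at 0h and at 24h, and NANOG had at most 0.203 CPM in any library. Neural markers summed to between 12.9 and 18.6 CPM at 0h and between 9.84 and 12.4 at 24h, with SOX1 at 0. The chondrocyte, crest, Schwann, pluripotent and neural sums did not overlap between 0h and 24h. The part of these lists in the changes of the collagen chains was not tested, and in bulk cultures fewer cells of a type and less RNA per cell cannot be told apart.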

How the data were processed

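SLAM-seq libraries of 3 cultures at 3 times were used. The authors trimmed read 1 of adapters, low-quality bases and poly(A), mapped and counted it with slamdunk, and deposited raw read counts per gene symbol, one table of all reads and one of T>C reads. Per the labels the build was hg38. The regions in which reads were counted are not given in the sources used here. No value column was left out (0 unused).

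The tests took their terms from the study's methods, which do not say whether the surrogate variable came from raw or scaled counts. For each kind of read, 1 DESeq2 fit (1.42.0, R 4.3.3) took the raw counts of the 9 samples, with time, differentiation batch and 1 surrogate variable (svaseq, sva 3.50.0, on counts scaled for depth). A protein-coding gene was tested if 3 or more samples reached 1 CPM, independent filtering was off, and genes were called at a Benjamini-Hochberg adjusted p under 0.1 over all tested genes. Unconverted counts are total minus T>C counts. The T>C share was tested as an interaction of read kind with time, with sample as a term and each kind's own size factors.

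The members, gene lists and tests were chosen with earlier results of these data known. Named genes were the 10 members, SOX9, SOX5, SOX6, COL24A1, up to 3 genes per list called in T>C reads at 24h with the smallest adjusted p, and the 3 genes most correlated with COL2A1 and with COL1A1. The 3 genes per list covered fibril-surface chains, folding, export, propeptide removal, crosslinking, fibril-binding proteins and receptors.

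Culture names pair samples across times, from clone and batch in the sample titles. Deviations from the group means correlated at 0.017 to 0.286 in T>C reads and -0.057 to 0.606 in total reads over the 9 pairs of samples of one culture. No 2 libraries of one time held the same values (chi-square per degree of freedom at least 4.69 over 18 comparisons). The p-values of the main fit rest on the spread of libraries left after time, batch and the surrogate variable. DESeq2 estimates that spread with information shared between genes. Culture was not a term of the main fit, and the libraries came from 3 cultures of 2 clones. Alternatives were the replicate block, edgeR (4.0.16), TMM factors, other filters and covariates, limma (3.58.1) for the share, and each culture left out; a surrogate variable from counts not scaled for depth was added after seeing the data. Coordinates came from GENCODE release 44.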

Additional observations from a re-analysis of the deposited data

Results flagged for a closer look

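Groups of 3 libraries were too small to be searched for single stray libraries. The changes at 3h and at 24h differed for 3 members when 24h was tested against 3h with DESeq2. COL2A1 was lower at 24h than at 3h by a log2 fold change of -0.75 in T>C reads, -0.76 in total reads and -0.72 in unconverted reads. COL11A1 gave -0.41 in total reads and -0.39 in unconverted reads. COL1A2 was higher, with 0.51 in T>C reads, 0.50 in total reads and 0.54 in unconverted reads.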

How the results depend on the processing

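Depth limited what could be measured for COL11A2, COL5A2 and COL5A3. For T>C reads at 24h, 4 members were called, against 2 with the replicate block and 1 surrogate variable, 2 with the surrogate variable from counts not scaled for depth (chosen after seeing the data), and 1 to 2 with a culture left out. For T>C reads at 24h against 3h, 2 were called, against 1 under each of those fits (60 and 78 of all 12037 genes, in place of 137) and 0 to 1 with a culture left out (23 to 83 genes). For T>C reads at 3h, 0 were called, against 1 with size factors from total reads (231 of all 12037 genes, in place of 216). For total reads, 3 members called at 24h against 3h became 5 with the replicate block, without a surrogate variable or without covariates (1544, 901 and 858 of all 11710 genes, in place of 631), and 1 to 4 with a culture left out (92 to 884 genes). At 24h against 0h, 4 became 1 to 3 with a culture left out. For unconverted reads the paired fit with the replicate block and no surrogate variable called 5 members for both 24h comparisons, in place of 3 (over all 11529 genes, 1365 in place of 1396 and 1166 in place of 529). Leaving out a culture gave 1 to 3 members at 24h against 0h (127 to 585 of all genes) and 1 to 4 at 24h against 3h (92 to 577). The replicate block without a surrogate variable moved no other count of called members by over 1.5 times. In the share, 0 members were called under every alternative run.

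Over all genes the calls in T>C reads at 24h against 0h went from 599 to between 354 and 968 over the alternatives with all libraries, and to between 64 and 259 with a culture left out. In total reads 1751 became 831 to 2018 and 163 to 788. COL2A1 stayed called at 24h against 0h in T>C reads in 16 of 16 alternatives, with log2 fold changes between -1.32 and -0.92, and in total reads in 15 of 15. COL1A2 stayed called in T>C reads in 14 of 16, and COL11A1 and COL1A1 in 11 of 16 each. No log2 fold change of these genes changed sign at 24h against 0h in T>C or total reads. The causes were not tested.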
